A study of Homo sapiens with 19 samples.

Results

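The adducin, spectrin and protein 4.1 genes measured here were ADD1, ADD3, SPTAN1, SPTBN1, EPB41, EPB41L1, EPB41L2 and EPB41L5. They were chosen by name, with earlier results of these data known. They are 8 of the 11998 genes with a row in the 15 alternative splicing tables of the study. RNA was sequenced from HMLE/Twist-ER cells, a tert-immortalized human mammary epithelial cell line that carries the EMT transcription factor Twist fused to the estrogen receptor, so that tamoxifen switches Twist on. The 11 RNA-seq libraries fell into 4 groups that all carried a stably expressed lentiviral shRNA. EPI control (n = 3) and EPI AKAP8 knockdown (n = 3) were untreated epithelial cells with a non-specific shRNA or an shRNA against AKAP8, a nuclear RNA-binding protein. MES control (n = 3) and MES AKAP8 knockdown (n = 2) carried the same kinds of shRNA and were grown in 20 nM tamoxifen until they had a mesenchymal morphology. The methods of the study call the libraries of a group biological replicates, p-values measure the spread between these libraries, and the untreated and treated states also differ by tamoxifen itself. AKAP8 binding was mapped by eCLIP, a crosslinking and immunoprecipitation assay, in 2 immunoprecipitated and 2 input libraries per state, and only peaks merged over the replicates were deposited.

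These genes encode the membrane skeleton, a mesh beneath the plasma membrane that gives cells their shape and holds membrane proteins in place. Spectrin is a long flexible rod of alpha (SPTAN1) and beta (SPTBN1) chains, adducins (ADD1, ADD3) cap actin filaments and recruit spectrin to them, and proteins of the 4.1 family (EPB41 and the EPB41L genes) strengthen the spectrin-actin contact and tie it to the membrane. In epithelial cells the skeleton lines the lateral membrane beside cell-cell junctions, and several of these genes are known for exons that are included in some tissues and skipped in others. EPB41L5, a divergent relative, is known for its part in the remodelling of adhesion during EMT.

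The exons on which the splicing results turned are shown first, with the SPTAN1 microexon beside them. All of them preserve the reading frame and lie in coding sequence of the Gencode annotation lifted to GRCh37. In ADD3 the exon of 96 nt at chr10:111892063-111892158 (plus strand) held no run of GGG, the core of the G-rich motif that the study describes for AKAP8. Of 3702 skipped exons in the EMT table with a length within 5 nt of it, 60.1% held GGG on the strand of the gene. Here only exons were searched for GGG, not the introns beside them, although the study found AKAP8 mostly in introns. In SPTAN1 the exon of 60 nt at chr9:131355262-131355321 (plus strand) and the microexon of 15 nt at chr9:131371930-131371944 (plus strand) also held none, against 42.6% and 14.7% of exons of like length. In EPB41L2 the exon of 147 nt at chr6:131199244-131199390 (minus strand) held 2 runs, with at least 1 in 76.95% of exons of like length. In EPB41 the exon of 57 nt at chr1:29385101-29385157 (plus strand) held none, against 40.9% of exons of like length. The called exon of EPB41L1, 411 nt long and not printed for its length, held 11 runs, and the share over exons of like length was not taken for it. The letters are read 5′ to 3′ from GRCh37, with GGG in capitals.
ADD3 96-nt exon: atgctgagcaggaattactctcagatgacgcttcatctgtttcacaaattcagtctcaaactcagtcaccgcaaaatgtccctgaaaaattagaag
SPTAN1 60-nt exon: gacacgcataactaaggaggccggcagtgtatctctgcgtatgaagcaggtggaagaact
SPTAN1 15-nt exon: ctttccaagctgctg
EPB41L2 147-nt exon: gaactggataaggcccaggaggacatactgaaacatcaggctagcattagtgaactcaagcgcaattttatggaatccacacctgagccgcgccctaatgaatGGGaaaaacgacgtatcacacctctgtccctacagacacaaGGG
EPB41 57-nt exon: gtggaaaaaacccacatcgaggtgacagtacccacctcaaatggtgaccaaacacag

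A pair of 63-nt exons is shown because they are the matching exons of related genes, EPB41 at chr1:29386934-29386996 (plus strand) and EPB41L2 at chr6:131201284-131201346 (minus strand). In EPB41 this exon encodes part of the domain that binds spectrin and actin. Laid side by side without gaps, 50 of the 63 letters (79.4%) were the same, including the last 26 letters at the 3′ end. GGG was in the EPB41L2 exon only, and in 44.2% of exons of like length. Capitals mark the shared letters.
EPB41 63-nt exon: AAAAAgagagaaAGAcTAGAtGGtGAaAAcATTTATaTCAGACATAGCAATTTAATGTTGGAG
EPB41L2 63-nt exon: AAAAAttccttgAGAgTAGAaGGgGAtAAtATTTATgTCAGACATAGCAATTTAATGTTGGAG

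The junction reads summed over skipped exon events ranged from 31258177 to 38997923 per library in the EPI knockdown table, from 35073827 to 40852217 in the MES knockdown table and from 32705396 to 37640402 in the EMT table, where a junction shared by several events is counted in each. AKAP8 itself was at 37.1% to 46.9% of the EPI control mean in the 3 EPI knockdown libraries. In the 2 MES knockdown libraries it was at 39.3% to 44.3% of the MES control mean, with MES controls at 382, 196 and 248 scaled reads. By the limma test of gene level described below, the fall missed the cutoff in EPI cells (log2 -1.20, adjusted p = 0.0664). It passed in MES cells (log2 -1.20, adjusted p = 0.0322). Of the epithelial marker list, 6 of 10 genes were tested and all 6 fell in EMT of control cells, while 9 of 10 mesenchymal markers were tested and all 9 rose. A gene was tested if it had a skipped exon event in all 3 skipped exon tables and passed a filter on low values. A marker that was not tested is thus not shown to be low. Of 5 markers of endothelial and blood cells only CD68, a macrophage and lysosomal marker, was among the genes tested. It fell in EMT of control cells (log2 -1.02, adjusted p = 0.0457) and of knockdown cells (log2 -1.54, adjusted p = 0.0125), and its part in the results was not tested.

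Inclusion was measured as PSI, the percent of the inclusion form among the forms of an event, from inclusion and skipping junction reads corrected for the number of junction positions. An event has fixed flanking exons, so PSI is not the percent of all transcripts of the gene that carry the exon. An event was called changed at a difference of at least 10 points and a Benjamini-Hochberg adjusted p below 0.05 in a quasi-binomial test with limma-moderated dispersion, among events with on average at least 20 junction reads per library. The genes had 142 events in the EPI knockdown tables, of which 129 were tested, 128 in the MES knockdown tables (118 tested), 139 in the EMT tables (126 tested) and 101 in the comparison of both knockdown groups (96 tested), and none of them was a retained intron. After AKAP8 knockdown 1 event was called in EPI cells, where 0.0492% of all 65008 events tested were called, and 1 in MES cells, where 0.054% of 59288 were. Between EPI and MES control cells 6 events were called (1.59% of 67451 in the background), and between the 2 knockdown groups 3 (1.31% of 42146). The median size of the difference over the tested events of these genes was 0.713, 1.29, 1.15 and 1.36 points in those 4 comparisons, so most events lay near 0. The comparisons share libraries, since the EPI and MES controls of the knockdown comparisons are also those of EMT in control cells.

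**Figure D1:**
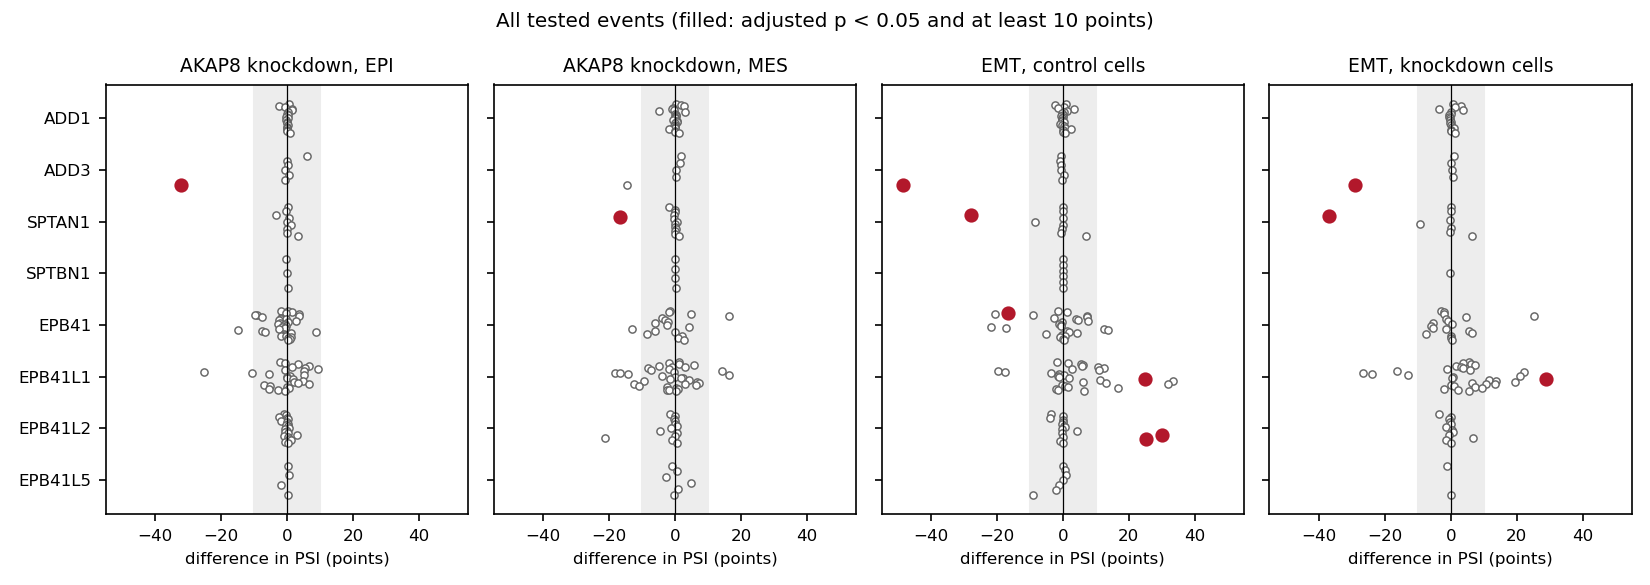
Difference in PSI, in percentage points, of every tested event of the 8 genes (rows) in 4 comparisons (panels), with the second group minus the first; the grey band spans 10 points on either side of 0 and filled points passed both cutoffs. Filled points number 1, 1, 6 and 3 from left to right, and the SPTBN1, EPB41L5 and ADD1 rows hold none.

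ADD3, gamma adducin, had the exon with the largest difference of any called event of these genes. Inclusion of its 96-nt exon was 62.3%, 69.4% and 64.3% in the EPI control libraries and 37.2%, 29.6% and 32.7% after AKAP8 knockdown. In the MES control libraries it was 16.7%, 21.0% and 13.1%, and in the MES knockdown libraries 7.19% and 1.29%. The 4 groups did not overlap, with EPI control highest and MES knockdown lowest. Between 80 and 380 junction reads stood behind each value.

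In EPI cells ADD3 exon inclusion fell by 32.2 points on AKAP8 knockdown (65.3% ± 3.68 against 33.2% ± 3.81, SD, n = 3 each, adjusted p = 3.41e-06), a change toward skipping shared by 0.0315% of all skipped exon events tested. In EMT of control cells it fell by 48.4 points to 16.9% ± 3.93 (SD, n = 3, adjusted p = 6.28e-23), and in EMT of knockdown cells by 28.9 points to 4.24% ± 4.17 (SD, n = 2, adjusted p = 2.65e-05). Without MES knockdown 2 the last of these differences was -25.96 points and missed the cutoff (adjusted p = 0.0804). In MES cells the knockdown libraries differed by -14.6 points from the 2 MES controls of that table, which did not pass (adjusted p = 0.192), and with the third MES control the difference was -12.7 points (adjusted p = 0.369). The test of whether the knockdown effect differed between the states gave an unadjusted p of 0.755 on the log odds scale, so the smaller difference in points in MES cells is not shown to be a smaller effect. The EPI call was lost when limma was run on the logit of PSI instead (adjusted p = 0.761), a setting that called 0 of all 47579 skipped exon events.

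**Figure D2:**
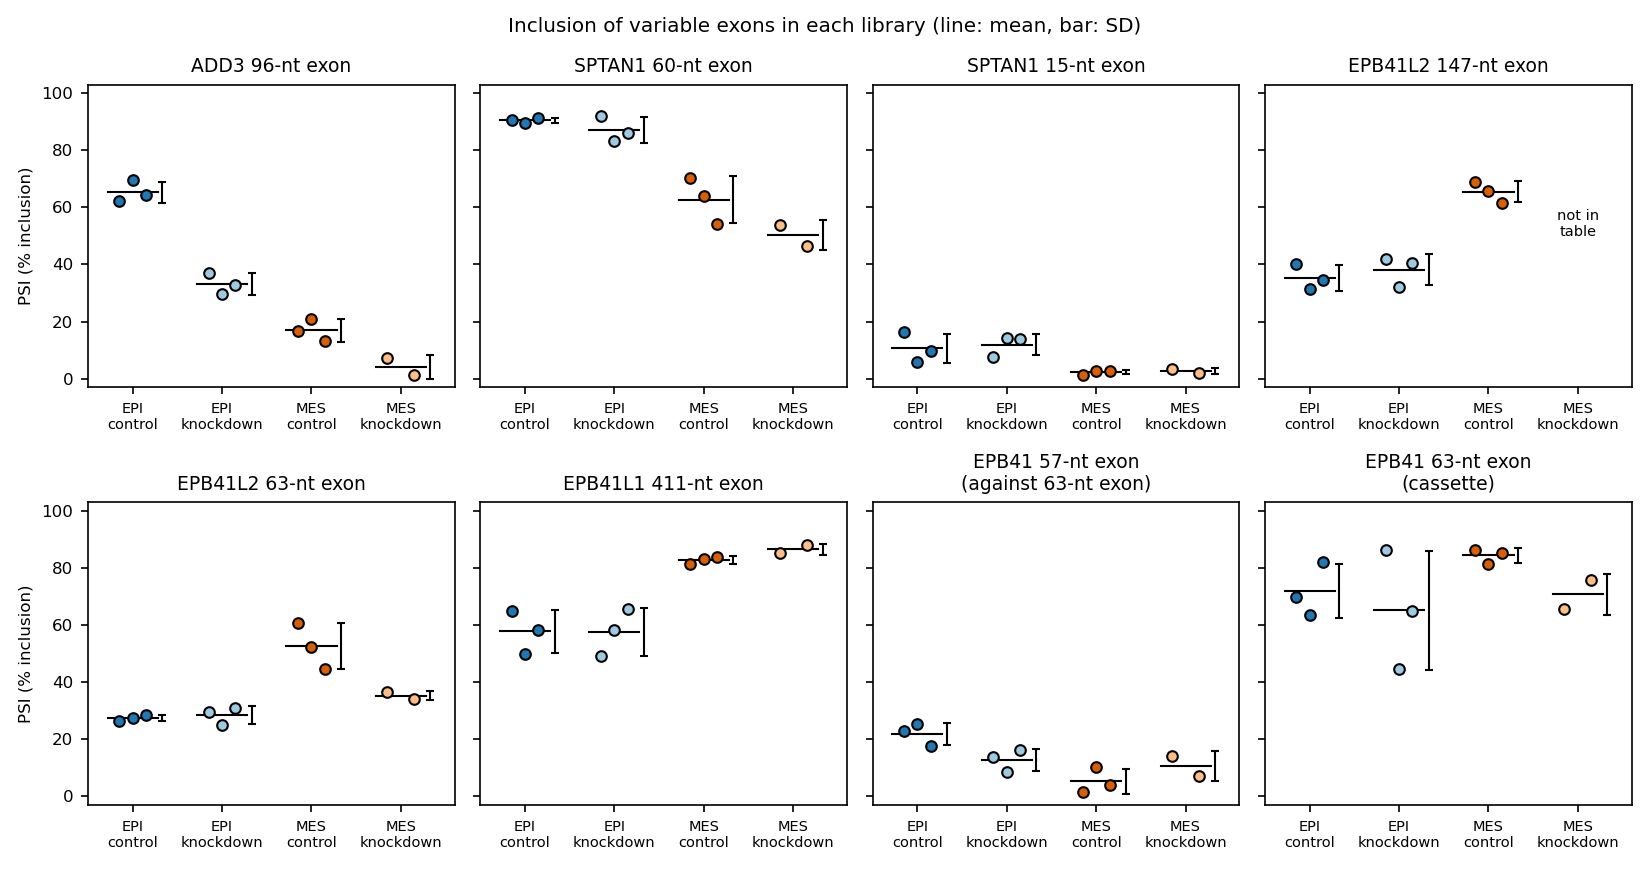
PSI in percent (vertical axis) of 8 variable exons in each library of the 4 groups (horizontal axis); points are libraries, lines are group means and bars are SD. ADD3 points step down from the EPI controls, all above 60%, to the MES knockdown libraries, both below 10%, while EPB41L1 and EPB41L2 points are higher in MES control than in EPI control.

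SPTAN1, the alpha chain of non-erythroid spectrin, included its 60-nt exon less often in mesenchymal cells. Inclusion was 90.5%, 89.6% and 91.2% in EPI control and 70.1%, 63.9% and 54.1% in MES control, with 501 to 1038 junction reads per library over all groups. The EPI knockdown libraries were at 92.1%, 83.3% and 86.1% and the MES knockdown libraries at 53.9% and 46.6%. The EPI groups overlapped each other, and every EPI library was above every MES library.

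SPTAN1 60-nt exon inclusion fell by 27.7 points in EMT of control cells (90.4% ± 0.833 to 62.7% ± 8.11, SD, n = 3 each, adjusted p = 1.18e-15) and by 36.9 points in EMT of knockdown cells (adjusted p = 5.25e-17). In MES cells it fell by 16.8 points on AKAP8 knockdown (67.0% ± 4.40 against 50.2% ± 5.19, SD, n = 2 each, adjusted p = 0.0166). The third MES control, at 54.1%, lies next to the higher knockdown library at 53.9%, and with it the difference was -12.5 points and no longer passed (adjusted p = 0.295). The MES call was also lost without MES control 1 (-13.7 points, adjusted p = 0.921), without MES control 2 (-19.9 points, adjusted p = 0.333) and without MES knockdown 2 (-13.1 points, adjusted p = 0.928). In EPI cells the knockdown libraries differed by -3.27 points, which did not pass (adjusted p = 0.705), and the difference between the states was not shown (unadjusted p = 0.559).

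The shorter variable exons of SPTAN1 differed between the states by less than the cutoff of 10 points. The 15-nt microexon was included at 16.2%, 5.96% and 9.62% in EPI control and at 1.45%, 2.69% and 2.602% in MES control, a difference of -8.36 points (adjusted p = 2.29e-08), and the knockdown groups gave 7.75%, 14.1% and 13.8% in EPI and 3.35% and 1.86% in MES. An 18-nt exon at chr9:131390204-131390221, named here after its values were seen, was 6.90 points higher in MES control than in EPI control (94.8% ± 3.001 against 87.9% ± 4.22, SD, n = 3 each, adjusted p = 0.00434). Both exons differed in the same direction between the knockdown groups, by -9.29 points (adjusted p = 6.61e-07) and 6.50 points (adjusted p = 0.00197). In SPTBN1, the beta chain, the 6 events tested in EMT differed by at most 0.0848 points, and inclusion of its 64-nt exon at chr2:54887073-54887136 was between 99.5% and 100% in all 11 libraries.

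EPB41L2 used a pair of exons, 147 and 63 nt long, more often in mesenchymal control cells. Inclusion of the 147-nt exon was 40.1%, 31.3% and 34.6% in EPI control and 69.0%, 65.7% and 61.6% in MES control, and the EPI knockdown libraries were at 42.1%, 32.1% and 40.4%. Inclusion of the 63-nt exon was 26.5%, 27.5% and 28.3% in EPI control, 29.6%, 25.01% and 30.9% in EPI knockdown, 60.7%, 52.5% and 44.8% in MES control, and 36.5% and 34.1% in MES knockdown. For both exons the MES controls were above all EPI libraries, and the MES knockdown libraries lay between the EPI libraries and the MES controls for the 63-nt exon. The event with the 147-nt exon between the same outer exons has no row in the MES knockdown table.

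In EMT of control cells EPB41L2 inclusion rose by 30.1 points for the 147-nt exon (adjusted p = 4.87e-11) and by 25.2 points for the 63-nt exon (27.4% ± 0.909 to 52.7% ± 7.98, SD, n = 3 each, adjusted p = 1.82e-06), where 0.772% of all skipped exon events were called toward inclusion. These 2 calls are not independent, since both are measured against the same junction that leaves out both exons, with 607 reads over the EPI controls and 324 over the MES controls. Junctions that would leave out only the 147-nt exon had 2 reads over the EPI controls and 5 over the MES controls, and those that would leave out only the 63-nt exon had 1 and 0. Nearly every skipping read thus left out both exons together.

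For the 63-nt exon of EPB41L2 the MES knockdown libraries differed by -21.3 points from the 2 MES controls of that table, which did not pass (adjusted p = 0.316) and was called with the dispersion trend fitted on all reads (adjusted p = 0.00908). With the third MES control the difference was -17.4 points (adjusted p = 0.622). The EPI knockdown differed by 1.07 points (adjusted p = 0.943), and in EMT of knockdown cells the exon was 6.79 points higher (adjusted p = 0.739). The difference between the knockdown effects was -18.4 points with an unadjusted p of 0.0149 and an adjusted p of 0.659 over 30197 skipped exon events, so it did not pass.

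EPB41, which encodes the protein 4.1 first known from red cells, carried 2 neighbouring exons, those of 57 and 63 nt shown above. Transcripts could use 1, both or neither of them. Among junction reads with only 1 of them, the 57-nt exon made up 23.0%, 25.2% and 17.6% in EPI control, 13.6%, 8.73% and 16.1% in EPI knockdown, 1.65%, 10.2% and 3.94% in MES control, and 14.3% and 7.06% in MES knockdown. The 57-nt share was higher in every EPI control library than in any other library. It fell by 16.7 points in EMT of control cells (22.0% ± 3.92 to 5.26% ± 4.43, SD, n = 3 each, adjusted p = 0.00483), with 63 to 170 reads per library and 2.24% of all mutually exclusive exon events called. In EPI cells the difference on knockdown was -9.11 points (adjusted p = 0.699), in MES cells 4.73 points (adjusted p = 0.999) and in EMT of knockdown cells -2.18 points (adjusted p = 0.966). Tested as a skipped exon, the 63-nt exon of EPB41 was at 70.0%, 63.7% and 82.0% in EPI control and at 86.4%, 81.4% and 85.4% in MES control. Those groups overlapped and the difference of 12.5 points did not pass (adjusted p = 0.453).

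EPB41L1, the 4.1 protein best known from neurons, included a long exon of 411 nt at chr20:34797410-34797820 (plus strand, coding) more often in mesenchymal cells. Inclusion was 64.9%, 50% and 58.4% in EPI control and 81.3%, 83.3% and 83.7% in MES control, and in the knockdown libraries it was 49.0%, 58.2% and 65.7% in EPI and 85.2% and 87.9% in MES. All MES libraries were above all EPI libraries. Inclusion rose by 24.99 points in EMT of control cells (57.8% ± 7.47 to 82.8% ± 1.31, SD, n = 3 each, adjusted p = 0.000922) and by 28.9 points in EMT of knockdown cells (57.6% ± 8.33, n = 3, to 86.6% ± 1.91, n = 2, SD, adjusted p = 0.000295), with 80 to 280 reads per library. On AKAP8 knockdown it differed by -0.133 points in EPI cells (adjusted p = 0.983) and by 4.29 points in MES cells (adjusted p = 0.763). Without EPI control 2 the EMT difference was 21.1 points and missed the cutoff (adjusted p = 0.0888), and without MES knockdown 2 that in knockdown cells was 27.6 points and missed it too (adjusted p = 0.0508).

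The remaining exons with the most reads of both forms were not called in any comparison. ADD1, alpha adducin, has a 93-nt exon at chr4:2911066-2911158 that was included at 1.02% ± 0.772 in EPI control and 3.50% ± 0.868 in MES control (SD, n = 3 each, adjusted p = 0.0166), a difference of 2.48 points that is below the cutoff. Its 34-nt exon at chr4:2928369-2928402 was between 1.68% and 7.37% in all 11 libraries. EPB41L1 has an exon at chr20:34802282-34802362 with an alternative start 3 nt earlier, and the 81-nt form was at 37.8% ± 3.64 in EPI control and 51.1% ± 3.89 in MES control (SD, n = 3 each, adjusted p = 0.413). The longer form was measured against the same skipping reads, so these values are not shares of all transcripts. In EPB41L5 the 188-nt exon at chr2:120776653-120776840 was included at between 98.0% and 100% in every library. The 58-nt exon of ADD3 at chr10:111838998-111839055 was at 2.85% or less.

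Of 69 skipped exon events of these genes tested for a difference of the knockdown effect between EPI and MES cells, 0 passed by the quasi-binomial test with limma-moderated dispersion, where 0.00993% of all 30197 did. At an unadjusted p under 0.05 there were 3, beside 2250 of all 30197 events. Under each alternative of the dispersion trend or the read minimum 0 passed. The lowest p belonged to a 191-nt exon of EPB41L1 at chr20:34761686-34761876, named after its values were seen, with a knockdown difference of -25.2 points in EPI and 15.6 points in MES cells (unadjusted p = 0.000547, adjusted p = 0.654). Other events of the same EPB41L1 exon with other flanking exons gave differences between the states of -20.1, -11.7 and -8.99 points, the opposite sign.

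Gene level was approximated by the junction reads summed over the skipped exon events of a gene that were found in all 3 skipped exon tables, scaled between libraries by median-of-ratios size factors, and tested with limma on log2(value + 1) in 1 fit of all 11 libraries. A gene was called at an absolute log2 fold change over 1 and an adjusted p below 0.05. Fewer cells of a kind and less RNA per cell cannot be told apart in such bulk libraries, and levels are not compared between genes because the sums depend on the number of events. All 8 genes passed the filter on low values (10 scaled reads in 2 or more of the libraries). In EPI knockdown 0 were called (background 0.189% of 9014 genes) and in MES knockdown 1 (2.27%). In EMT 1 was called in control cells (12.5%) and 1 in knockdown cells (12.3%). At an unadjusted p under 0.05 there were 2 of the 8 in EPI knockdown, beside 889 of the 9014 genes.

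EPB41 levels fell in EMT. Scaled junction reads of EPB41 were 1759, 1827 and 1713 in EPI control, 1196, 1457 and 1174 in EPI knockdown, 610, 734 and 892 in MES control, and 381 and 585 in MES knockdown. The log2 fold change was -1.26 ± 0.19 (SE, adjusted p = 0.000399) in EMT of control cells and -1.42 ± 0.21 (SE, adjusted p = 0.000407) in EMT of knockdown cells. Knockdown libraries were lower in both states without passing, at log2 -0.48 in EPI (adjusted p = 0.431) and -0.64 in MES cells (adjusted p = 0.104).

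ADD3 and EPB41L2 were lower after knockdown in MES cells. ADD3 was at 1476, 1429 and 1510 in MES control and at 689 and 702 in MES knockdown (log2 -1.08 ± 0.23, SE, adjusted p = 0.0218), with EPI control at 1825, 1434 and 2091 and EPI knockdown at 1285, 837 and 1491 (log2 -0.59, adjusted p = 0.320). The ADD3 call in MES cells was lost when any 1 of the 5 MES libraries was left out (adjusted p from 0.0587 to 0.127), with the log2 fold change between -1.06 and -1.10. EPB41L2 was at 6490, 6463 and 5932 in MES control and at 2883 and 3468 in MES knockdown, with log2 -0.99 ± 0.14 (SE, adjusted p = 0.00378), just short of the fold cutoff. In EPI cells EPB41L2 was at 5094, 5216 and 4864 in control and at 4117, 4389 and 4769 in knockdown (log2 -0.19, adjusted p = 0.716). For EPB41L2 the MES effect minus the EPI effect was log2 -0.80 (unadjusted p = 0.00118, adjusted p = 0.583). By limma 0 of the 8 genes passed that test of a difference between the states, where 0.0111% of all genes passed. At an unadjusted p under 0.05 there was 1, beside 590 of 9014 genes. EPB41L2 did not pass in EMT of control cells (log2 0.31, adjusted p = 0.0949). With scaling by total junction reads its log2 fold change in MES knockdown was -1.12, past the fold cutoff. The same alternative moved the median of all genes to -0.14.

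SPTAN1, SPTBN1 and ADD1 were higher in MES than in EPI control cells at an adjusted p below 0.05 but below the fold cutoff; 23.9% of all genes passed that p in either direction. SPTAN1 was at 3450, 4259 and 4335 in EPI control and at 7949, 8198 and 6628 in MES control (log2 0.92 ± 0.15, SE, adjusted p = 0.000651). SPTBN1 was at 540, 694 and 695 and at 1128, 1122 and 955 (log2 0.74 ± 0.19, SE, adjusted p = 0.0126), a sum over 1 event only. ADD1 was at 5187, 6241 and 5401 and at 11222, 9976 and 8397 (log2 0.81 ± 0.15, SE, adjusted p = 0.00192). The EPI and MES controls of these 3 genes did not overlap, as for 6 of the 8 genes and for 45.7% of all genes tested. EPB41L1 gave log2 0.47 (adjusted p = 0.147) and EPB41L5, with the lowest sums at 184 to 317 over all libraries, log2 -0.22 (adjusted p = 0.520).

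**Figure D3:**
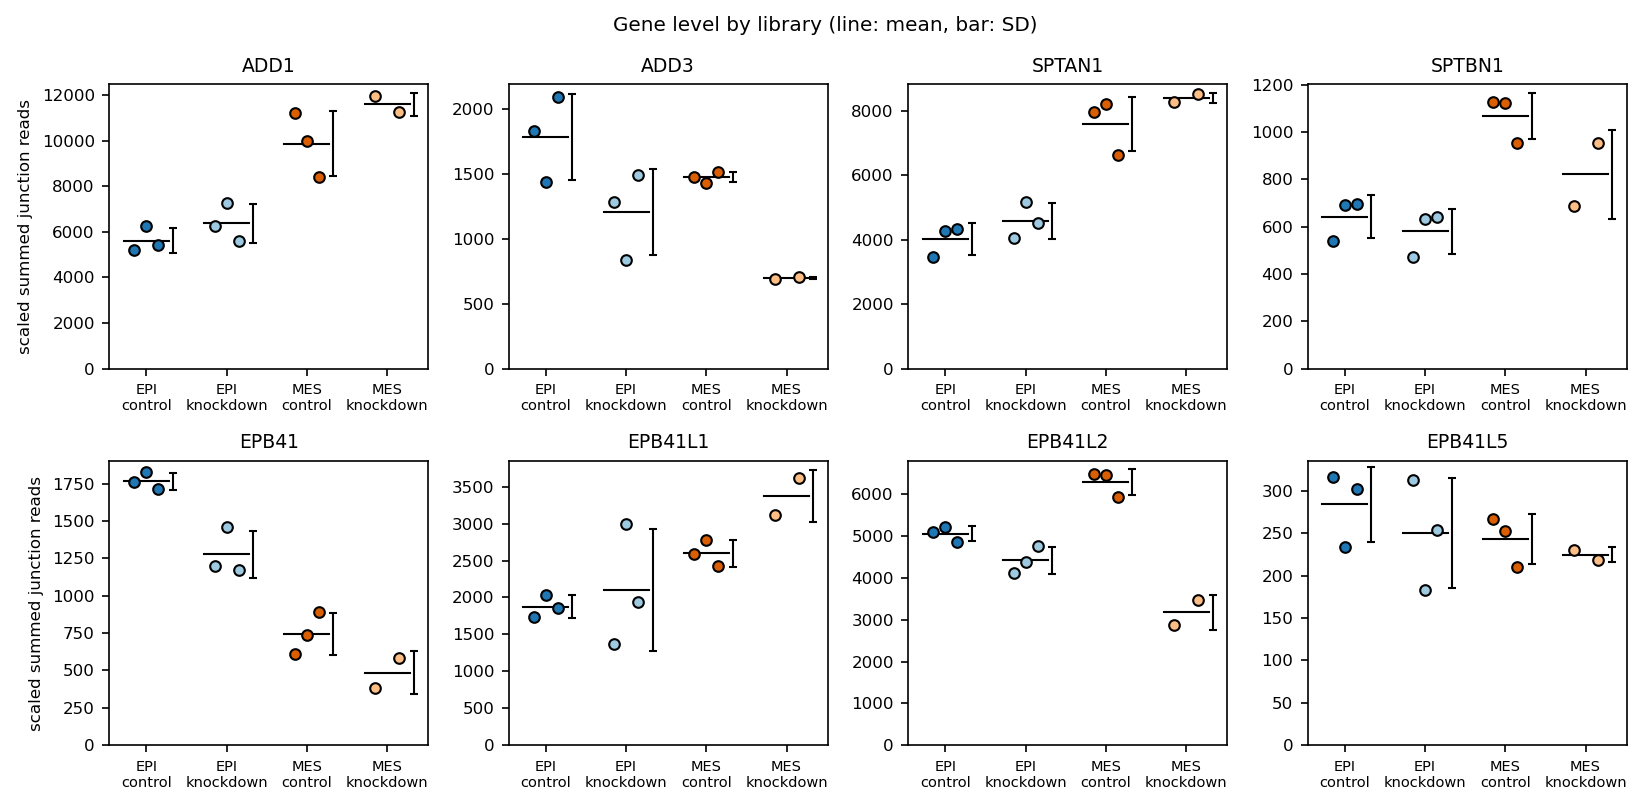
Scaled summed junction reads (vertical axis, from 0) of each gene in each library of the 4 groups; points are libraries, lines are means and bars are SD. EPB41 points are lower in every MES library than in any EPI library, and the ADD3 and EPB41L2 points of MES knockdown lie below those of the other 3 groups.

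**Figure D4:**
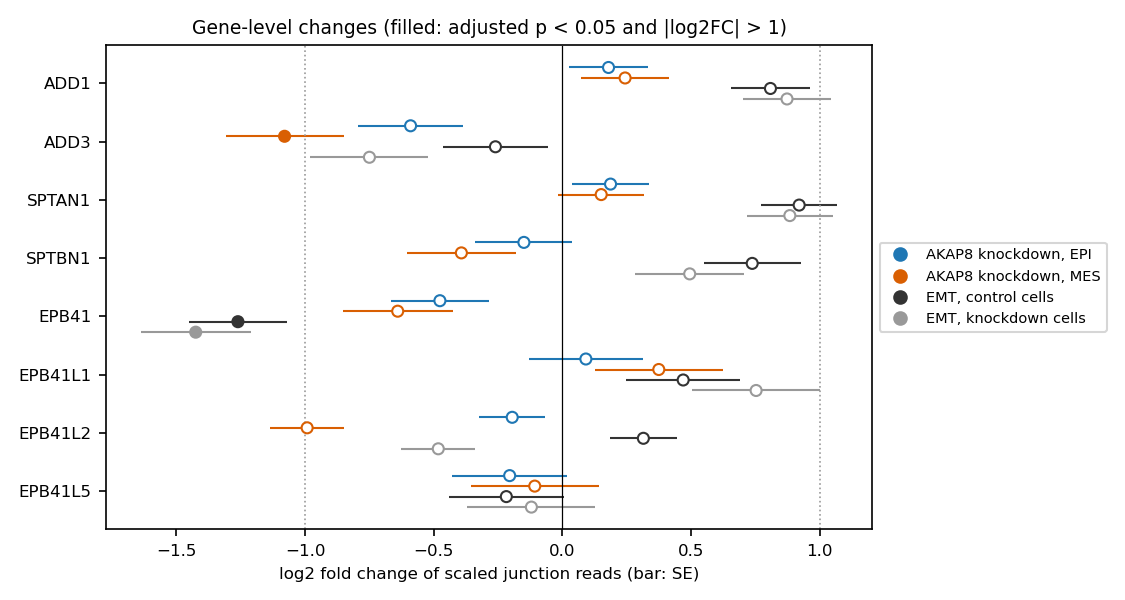
Log2 fold change of scaled summed junction reads (horizontal axis) for the 8 genes in 4 comparisons (colours), with SE bars from the limma fit, dotted lines at -1 and 1, and filled points for calls. The filled points are EPB41 in both EMT comparisons and ADD3 in MES knockdown.

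Other genes of the membrane skeleton and its 4.1-domain relatives (33 genes listed, among them the ankyrins that join spectrin to membrane proteins) gave the context. Of these, 20 were tested at gene level. In EMT of control cells, where 12.5% of all genes were called, 5 fell, among them ANK3, FRMD4B, EPB41L4B and DMTN, and 0 rose, with log2 fold changes from -2.94 for ANK3 to -1.01 for DMTN. In EMT of knockdown cells (12.3% of all genes called) 5 fell, among them FRMD4B, ANK3, FRMD6 and TMOD3, and 0 rose. In MES knockdown (2.27% of all genes called) 2 rose by limma, ANK2 (log2 1.59, adjusted p = 0.0207) and EPB41L4B (log2 1.18, adjusted p = 0.0438). In EPI knockdown 0 were called by limma, with 3 at an unadjusted p under 0.05, beside 889 of all 9014 genes. The list's median log2 fold change in EMT of control cells was -0.25, beside 0.01 over all genes and 0.39 over the 8 genes.

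Skipped exons of the listed genes were called 5 times among 117 tested in EMT of control cells (4 toward inclusion, 1 toward skipping; 1.4% of all skipped exon events were called) and 4 times among 66 in EMT of knockdown cells (2 in each direction; 1.34%). After AKAP8 knockdown 0 of 129 passed in EPI cells (0.0588%) and 0 of 86 in MES cells (0.0479%) by the quasi-binomial test with limma-moderated dispersion. In EMT of control cells the 5 exons were in NF2, the merlin tumor suppressor, at 89.3% ± 4.24 against 70.1% ± 8.66, in the phosphatase PTPN13 at 32.8% ± 4.34 against 54.5% ± 8.73, in FRMD6 at 74.7% ± 6.43 against 92.3% ± 1.65, and in the scaffold kinase CASK, with 56.5% ± 2.10 against 79.3% ± 2.87 and 31.7% ± 4.79 against 70.0% ± 5.02 (EPI against MES control, SD, n = 3 each). In EMT of knockdown cells the exons were in ANK2, NF2 and PTPN13. The 2 CASK calls had the same 185 reads of the rarer form. The 2 NF2 calls in knockdown cells, which share the start of the exon, had the same 238. Calls within such a pair are not independent.

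AKAP8 peaks over the genes were few and lay far from their variable exons. Peaks with a log2 enrichment of immunoprecipitate over input of at least 2 and a -log10 adjusted p of at least 3, on the strand of the gene, numbered 7 in EPI cells and 2 in MES cells. In EPI cells 5 of the 7 were in EPB41, 1 in ADD3 and 1 in EPB41L2, and both MES peaks were in EPB41L1 and overlapped each other. At least 1 such peak lay over 18.7% of 10804 genes with a skipped exon row in EPI cells (3 of the 8 here) and over 11.5% in MES cells (1 of the 8). ADD1, SPTAN1, SPTBN1 and EPB41L5 had none at these cutoffs. Weaker deposited MES peaks lay over SPTAN1 (2), ADD3 (1) and EPB41L2 (1), and of 2 deposited EPI peaks over EPB41L2 1 passed. Of the 9 peaks 8 were intronic, the EPB41L2 peak overlapped an exon outside the coding sequence, and 0 were shared between the states by 1 base or more.

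The 5 EPB41 peaks were intronic, 313 to 2641 nt from its annotated start, with log2 enrichments from 3.24 to 4.95. Those at chr1:29216187-29216243 and chr1:29216244-29216286 adjoin without a gap, so they may be a single bound stretch. The distance of the EPB41 peaks to the nearest exon with a skipped exon row was 99582 to 101875 nt. The ADD3 peak (log2 3.54) was 70676 nt upstream of the nearest such exon, the EPB41L1 peaks (log2 4.38 and 4.33) 19172 and 19174 nt, and the EPB41L2 peak (log2 3.03) 135613 nt. No skipped exon of these genes lay within 1000 nt of a peak that passed both cutoffs, so none of the changed exons had such a peak beside it. The distance of the weaker peaks to these exons is not given here. The peak lists give 1 value per peak for both replicates of a state, so no spread between replicates is given here, and a gene without a peak is not shown to be unbound.

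All 9 peaks held GGG on their strand, as did 97.3% of all peaks in EPI cells and 95.8% in MES cells. The strongest EPB41 peak at chr1:29216187-29216243 (plus strand), the ADD3 peak at chr10:111768247-111768322 (plus strand) and the shorter EPB41L1 peak at chr20:34742432-34742512 (plus strand) are shown with GGG in capitals, as the sequences with AKAP8 signal in these genes.
EPB41 EPI peak: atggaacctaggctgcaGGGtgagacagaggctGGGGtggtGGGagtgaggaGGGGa
ADD3 EPI peak: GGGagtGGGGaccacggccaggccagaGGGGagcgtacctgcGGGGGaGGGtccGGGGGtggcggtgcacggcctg
EPB41L1 MES peak: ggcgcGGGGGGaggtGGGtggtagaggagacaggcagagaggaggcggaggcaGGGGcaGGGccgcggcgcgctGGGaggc
They held 4, 6 and 5 separate runs of 3 or more G.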

How the data were processed

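The authors aligned stranded paired-end RNA-seq reads to GRCh37 with STAR and counted junction reads per library for skipped exons, mutually exclusive exons, retained introns and alternative splice sites with rMATS. The deposited tables hold whole-number inclusion and skipping counts, listed per group in a single field without replicate numbers, so libraries are numbered by their place in that list, and 30 PSI columns and the p-values and differences of the authors were not used. The MES knockdown tables hold 2 MES controls, and the third is taken from the EMT tables. The gene table with DESeq2 values was not used, because its gene column holds whole numbers that name no gene. Peaks were called by the authors on eCLIP libraries, merged over replicates and deposited with a log2 enrichment over input and a −log10 adjusted p-value.

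PSI was tested per event with a quasi-binomial F test whose dispersion was moderated across all events of a type (limma 3.58.1, R 4.3.3), with Benjamini-Hochberg adjustment within type and comparison. The interaction of state and knockdown was tested on skipped exons found in all 3 comparisons. Gene level used limma with trend on log2(value + 1). Scripts were tested on simulated data with known changes, where the splicing test missed most of the changes at these numbers of replicates and made few false calls, so an event that did not pass is not shown to be unchanged. Exons were named where they passed the cutoffs in any comparison, or were among the 2 exons per gene with the most reads of the rarer form in the EPI knockdown table. Exons within 1000 nt of a peak that passed both peak cutoffs were to be added, and there were 0. Annotation was Gencode lifted to GRCh37, newer than that of the authors. The genes and lists were chosen with earlier results of these data known. The gene-level test of the difference between states and the sum over a single event were chosen after seeing the data. The values of 1 gene of the membrane skeleton list are not reported here.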

Additional observations from a re-analysis of the deposited data

How the results depend on the processing

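No paired analysis was possible because the tables list the libraries of a group without replicate numbers, so the fits with a replicate block were not run. Over 1239 recomputed values, counts of calls among them, none changed direction while called and 1173 were graded as the same. For a single event or gene that grade means an unchanged call, whatever the sign. Some differences without a call did change sign. In EPI knockdown the long EPB41L1 exon ranged from -4.14 to 4.18 points, and the log2 fold change of EPB41L1 from -0.20 to 0.36. With limma on the logit of PSI the changed events of these genes numbered 0 in EPI knockdown, 0 in MES knockdown, 3 in EMT of control cells and 0 in EMT of knockdown cells. Over all skipped exon events that setting called 0 of 47579 in EPI knockdown and 0 of 43832 in MES knockdown. It called 417 of 49330 in EMT of control cells and 13 of 31496 in EMT of knockdown cells. In MES knockdown they numbered 0 without robust dispersion, 3 with the dispersion trend on all reads, 0 at a cutoff of 20 points and 0 with the third MES control, and leaving out libraries gave 0 to 1. In EMT of knockdown cells they numbered 5 at a cutoff of 5 points, and leaving out libraries gave 1 to 4, with 1 without MES knockdown 2. Leaving out libraries in EMT of control cells gave 6 to 9. Genes called in MES knockdown numbered 2 with scaling by total junction reads, 2 without a fold cutoff and 2 with a single event per gene, and leaving out libraries gave 0 to 1. In EMT of control cells 4 were called without a fold cutoff and 2 with a single event, and leaving out libraries gave 1 to 2, with 2 (SPTAN1 added) without MES control 3. In EMT of knockdown cells 6 were called without a fold cutoff, and leaving out libraries gave 1 to 2, with 2 (EPB41L1 added) without EPI knockdown 2. Without a fold cutoff 4.16% of all genes passed in MES knockdown, 23.9% in EMT of control cells and 20.7% in EMT of knockdown cells. Scaling by total junction reads moved the median log2 fold change of all genes to -0.14 in MES knockdown, -0.10 in EMT of control cells and -0.20 in EMT of knockdown cells. The cause was not tested for any of these. The 2 MES knockdown libraries and the low reads of EPB41 (29 in the lowest library for the mutually exclusive event) limit what can be detected.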
